A study of Mus musculus with 10 samples.

Results

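Pcdhb2 to Pcdhb10 are the 9 genes of the first part of the beta protocadherin cluster, and they were chosen by symbol from the 22 Pcdhb genes among the 35542 genes of the count table. All 9 were found. RNA was sequenced from the frontonasal prominence (FNP), the part of the embryonic face that gives rise to forehead and nose, in FVB/NJ mice at E10.5. The comparison bears on which genes of this tissue need SMCHD1, a chromatin protein that keeps several gene clusters silent. It holds 4 libraries from Smchd1 MD1/MD1 embryos (MD1, homozygous for the MommeD1 allele, which is treated as a null) and 6 from Smchd1 WT/WT embryos (WT). By their labels the MD1 libraries are 2 males and 2 females, and the WT libraries are 3 males and 3 females. The mutation is present in every cell of the MD1 embryos from the start of development. The sources used here do not say how many embryos went into a library, so the p-values speak of the spread between libraries, which may be technical in part.

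Clustered protocadherins are cadherin-like adhesion proteins of the cell surface, best known from neurons, where each cell expresses a few of them and like molecules on neighbouring cells bind each other. The genes of the beta cluster each encode a whole protein in 1 long exon, with a promoter of their own, and unlike the alpha and gamma genes they share no constant exons. Promoter choice depends on CTCF, on cohesin and on DNA methylation, and SMCHD1 is known to silence the clusters. No separate role of the single beta genes is described below, since all 9 encode proteins of this one kind.

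The 9 genes lie in a row on the plus strand of chromosome 18 (GRCm38), from base 37294812, the start of Pcdhb2, to base 37414514, the end of Pcdhb10. Pcdhb2 (ENSMUSG00000051599) covers 37294812 to 37297624, Pcdhb6 (ENSMUSG00000051678) covers 37333921 to 37337674, Pcdhb7 (ENSMUSG00000045062) covers 37341702 to 37345202 and Pcdhb10 (ENSMUSG00000045657) covers 37411664 to 37414514. Each of the 9 has 1 merged exon block in the annotation, between 2813 bases (Pcdhb2) and 3787 bases (Pcdhb3) long, and all 9 have the same start and end in the count table and in GENCODE release M21. The gap after Pcdhb8 is 42250 bases, the widest within the row, so that Pcdhb9 and Pcdhb10 stand apart from the other 7. The gap before Pcdhb2, to Pcdhb1, is 27286 bases. No other gene shares exon bases with a member, and 3 gene models on the same strand (Gm42416, Gm37013 and Gm37388) span all 9 by introns. The genes resemble each other in sequence, and windows of 75 bases, the read length in the study's methods, that also occur in a transcript of another gene make up between 0.073% (Pcdhb2) and 3.89% (Pcdhb10) of each longest transcript. The partner that shares most windows with Pcdhb10 is Pcdhb6, and with Pcdhb9 it is Pcdhb7. Reads from those windows could be counted for either gene.

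The libraries held between 4195119 and 20661292 counts in MD1 and between 9225452 and 24125084 in WT. Smchd1 itself was between 55.3 and 99.9 CPM in MD1 and between 229 and 265 CPM in WT, with no overlap (CPM, counts per 1000000 of the scaled library size). The library labelled MD1 female replicate 1 goes against its sex label, since 4 genes of the Y chromosome (Ddx3y, Uty, Kdm5d and Eif2s3y) summed to 290 CPM there, against a WT male mean of 277 CPM. Xist, the RNA of the inactive X, was at 204 CPM there, above the male libraries (at most 2.08 CPM) and below the lowest WT female library (2590 CPM), so the library matched neither sex. MD1 female replicate 4 stood apart on the first principal component (38.2% of the variance), and MD1 male replicate 3, the shallowest library, on the second (25.1%). Markers of facial mesenchyme were present in every library, with Prrx1, a transcription factor of that tissue, between 175 and 255 CPM in MD1 and between 215 and 366 CPM in WT. Fold changes without 1 of these libraries are given below for some members. Sums, shares, orders of level and counts of groups without overlap are given with all libraries.

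In MD1, Pcdhb2 rose past the threshold, and the other 7 members that could be tested had higher means with adjusted p-values above it. Levels were low throughout, and the highest count of any member in 1 library was 163 reads. The fold changes given are log2, MD1 over WT, from the quasi-likelihood test of edgeR, with p-values adjusted by the Benjamini-Hochberg method over all 15452 autosomal genes tested and a threshold of 0.05.

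Pcdhb2, the first gene of the row, was at 7.75 CPM in MD1 replicate 1 (labelled female), 3.89 CPM in MD1 male replicate 2, 6.77 CPM in MD1 male replicate 3 and 2.05 CPM in MD1 female replicate 4. These values rest on 163, 39, 28 and 27 reads. In WT it was at 0.43, 0.688 and 0.692 CPM in the males and 1.53, 1.04 and 0.877 CPM in the females. The groups did not overlap, and the lowest MD1 library was the one apart on the first principal component. The mean was 5.11 ± 2.62 CPM in MD1 (SD, n = 4) and 0.876 ± 0.38 CPM in WT (SD, n = 6). The difference was 2.51 ± 0.40 (SE) in log2, which is 5.68-fold, at an adjusted p of 0.0479 in edgeR. That p lies close to the threshold and the call was lost in 8 of the 10 fits that left out 1 library. The adjusted p of edgeR was 0.35 without MD1 replicate 1, 0.0807 without MD1 replicate 2, 0.16 without MD1 replicate 3, 0.138 without WT replicate 1, 0.203 without WT replicate 2, 0.213 without WT replicate 3, 0.149 without WT replicate 5 and 0.193 without WT replicate 6. In those fits and the other 2 the log2 fold change stayed between 2.18 and 2.79.

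**Figure D1:**
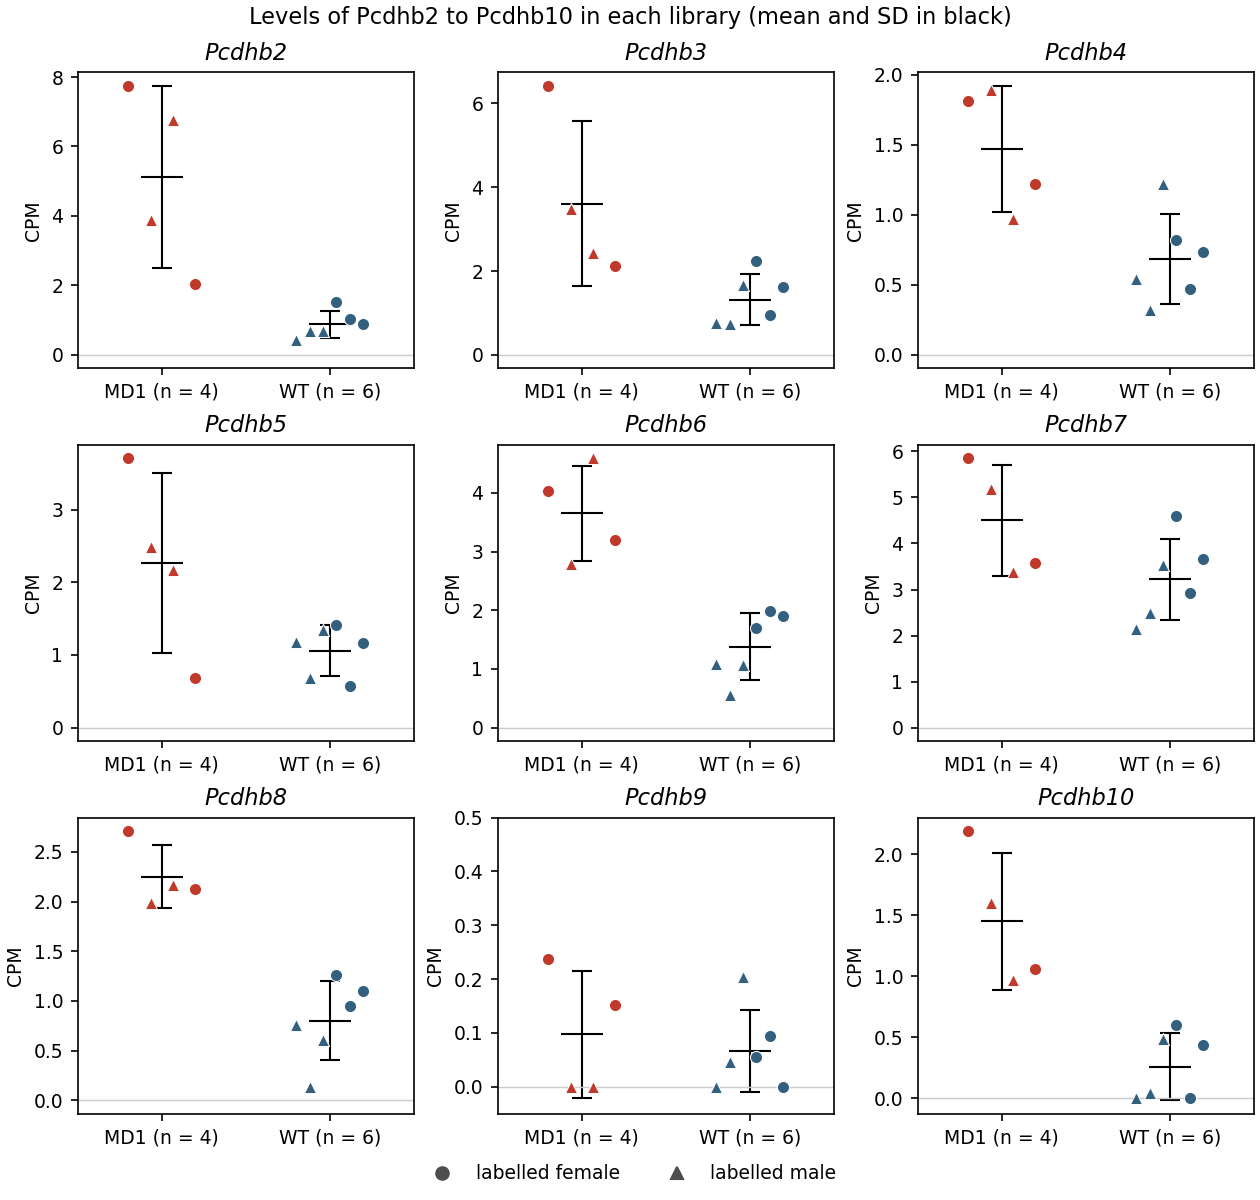
Level in CPM (vertical axis, linear) of each of Pcdhb2 to Pcdhb10 in every library, MD1 at left and WT at right, with circles for libraries labelled female, triangles for libraries labelled male, and black bars for the mean and SD. For Pcdhb2, Pcdhb6, Pcdhb8 and Pcdhb10 all 4 MD1 libraries lie above all 6 WT libraries, and Pcdhb9 stays under 0.25 CPM in each.

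Pcdhb3 and Pcdhb4 follow next along the row. Pcdhb3 was at 6.42, 3.49, 2.42 and 2.13 CPM in MD1 replicates 1 to 4, against 0.753, 0.734, 1.67, 2.24, 0.946 and 1.61 CPM in WT replicates 1 to 6. Of its MD1 libraries, 3 lay above every WT library, and MD1 female replicate 4 lay just under WT female replicate 4. Its log2 fold change was 1.46 ± 0.39 (SE), at an adjusted p of 0.496 in edgeR. Without MD1 replicate 1 it was 0.99 ± 0.40, the lowest of its leave-one-out values. For Pcdhb4 the values were 1.81, 1.89, 0.967 and 1.22 CPM in MD1, and the WT libraries ran between 0.321 and 1.22 CPM with a median of 0.634 CPM. Only 2 of the 4 MD1 libraries exceeded WT male replicate 3, the highest of WT. The log2 fold change of Pcdhb4 was 1.11 ± 0.38 (SE), with an adjusted p of 0.496 in edgeR.

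Pcdhb5 had the widest spread of the 9 genes over the MD1 libraries in log2 RPKM, with an SD of 1.18. Its levels were 3.71, 2.49, 2.17 and 0.684 CPM in MD1, against 1.18, 0.688, 1.34, 1.42, 0.568 and 1.17 CPM in WT. MD1 female replicate 4, with 9 reads, lay below 5 of the 6 WT libraries, while the other MD1 libraries exceeded all of WT. In log2, MD1 exceeded WT by 1.10 ± 0.42 (SE), with an adjusted p of 0.496 in edgeR. It was 1.44 without MD1 replicate 4 and 0.67 without MD1 replicate 1.

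Pcdhb6 separated the genotypes in every library and had the smallest standard error of the members whose groups did not overlap. In MD1 it was at 4.04, 2.79, 4.59 and 3.19 CPM, on 85, 28, 19 and 42 reads. WT libraries held 1.08, 0.55, 1.06, 1.69, 1.99 and 1.90 CPM. The means were 3.65 ± 0.813 CPM in MD1 (SD, n = 4) and 1.38 ± 0.57 CPM in WT (SD, n = 6). The log2 fold change of 1.41 ± 0.33 (SE) had an adjusted p of 0.493 in edgeR, at an unadjusted p of 0.00116. In DESeq2 the adjusted p of Pcdhb6 was 0.0376, and in the exact test of edgeR it was 0.0319.

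Pcdhb7 was the most abundant of the 9 in WT and differed least between the genotypes. Its levels were 5.85, 5.19, 3.38 and 3.57 CPM in MD1, against 2.15, 2.48, 3.54, 4.59, 2.93 and 3.66 CPM in WT. The groups overlapped, with 2 MD1 libraries inside the WT range. The log2 fold change was 0.50 ± 0.25 (SE), at an unadjusted p of 0.0701 and an adjusted p of 0.518 in edgeR. Leaving out MD1 replicate 1 gave 0.33.

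Pcdhb8 had the tightest MD1 values of the 9, with 2.71, 1.99, 2.17 and 2.13 CPM, a coefficient of variation of 14.0%. WT libraries ran between 0.138 and 1.26 CPM with a median of 0.849 CPM, and the lowest, WT male replicate 2, held 3 reads. The groups did not overlap. Their log2 fold change was 1.53 ± 0.43 (SE), and the adjusted p of edgeR was 0.496.

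Pcdhb9, the first gene after the wide gap, was at or near 0 in both genotypes. It had 5, 0, 0 and 2 reads in MD1 replicates 1 to 4 and 0, 1, 5, 1, 1 and 0 reads in WT replicates 1 to 6. It failed the filter on low counts, which asks for about 0.724 CPM in at least 4 libraries. In a fit without that filter its log2 fold change was 0.67 ± 0.97 (SE), at an adjusted p of 0.792 in edgeR. A count of 0 allows up to 3 reads. For the libraries with 0 reads of Pcdhb9, that is 0.299 CPM in MD1 male replicate 2 and 0.725 CPM in MD1 male replicate 3. In WT male replicate 1 it is 0.323 CPM, and in WT female replicate 6 it is 0.219 CPM. These limits cover counting error only.

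Pcdhb10, the last gene of the row, had 30 reads summed over the WT libraries, against 8 for Pcdhb9. Over the MD1 libraries it had 80, against 7. It had 46, 16, 4 and 14 reads in MD1, or 2.19, 1.60, 0.967 and 1.06 CPM. In WT it had 0, 1 and 12 reads in the males and 11, 0 and 6 reads in the females, at most 0.601 CPM. All 4 MD1 libraries lay above all 6 WT libraries. The means were 1.45 ± 0.562 CPM in MD1 (SD, n = 4) and 0.262 ± 0.276 CPM in WT (SD, n = 6). The log2 fold change was 2.35 ± 0.64 (SE), the second largest of the 8, with an adjusted p of 0.496 in edgeR. It reached the filter's level in 4 MD1 libraries and in 0 WT libraries, so it was tested only because of its MD1 level.

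Among the 8 members tested, 1 was called higher, Pcdhb2, and 0 lower, where 0.0712% of all tested autosomal genes were called higher. At an unadjusted p under 0.05, 7 of the 8 were higher, beside 6.41% of all tested genes. Without MD1 replicate 1, which goes against its sex label, 5 of the 8 were higher at that p, beside 7.88% of all tested genes. The groups did not overlap, with MD1 above WT, for 4 of the 8, beside 0.99% of all tested genes. The median log2 fold change was 1.44 over the 8 members and 0.00 over all tested genes. Pcdhb10 passed the filter through MD1 alone. Pcdhb2 and Pcdhb4 each reached its level in 4 MD1 libraries and 3 WT libraries, fewer in WT than the 4 it asks for. The called member, Pcdhb2, was thus also tested only with the help of its MD1 level. Since Pcdhb9 did not pass, the counts above describe the 8 and not all 9 genes. In bulk tissue, more cells that express a gene and more RNA per cell cannot be told apart.

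**Figure D2:**
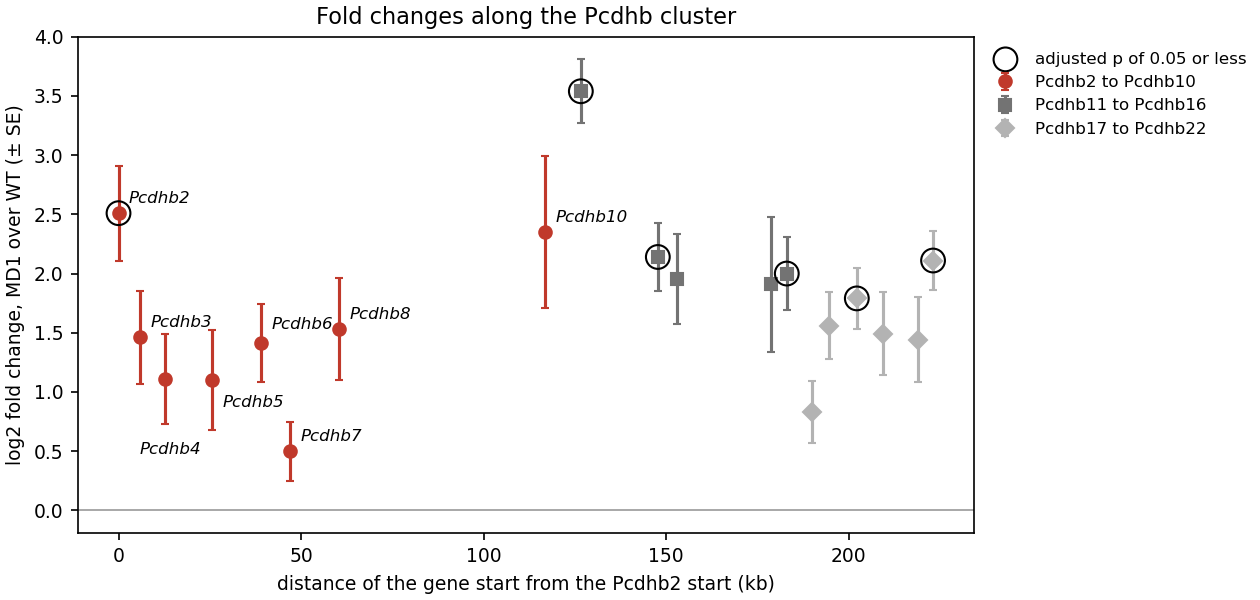
Log2 fold change, MD1 over WT (vertical axis, with standard error), against the distance of each gene's start from that of Pcdhb2 in kilobases, for the 19 tested Pcdhb genes, with rings where the adjusted p was 0.05 or less. Pcdhb2 (2.51) and Pcdhb10 (2.35) have the highest values of the row and Pcdhb7 (0.50) the lowest, with standard errors of 0.40, 0.64 and 0.25.

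Along the row, Pcdhb2 and Pcdhb10 had log2 fold changes of 2.51 and 2.35, and the 6 tested genes between them lay between 0.50 and 1.53. Differences between members were not tested. The value of Pcdhb10 rests on a gene that passed the filter through MD1 alone and had 0 reads in 2 WT libraries, and Pcdhb9 beside it has no value here. The later genes of the cluster were also higher in MD1. Of Pcdhb11 to Pcdhb16, 5 of 6 genes were tested, 3 were called higher and the median log2 fold change was 2.00. Of Pcdhb17 to Pcdhb22, 6 of 6 genes were tested, 2 were called higher and the median was 1.52. The differences between these stretches of the cluster were not tested. Pcdhb1, which lies before Pcdhb2 and did not pass the filter, had 6, 2, 0 and 1 reads in MD1 and 0 in each WT library.

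Summed over the 9 genes, the level was 34.7, 23.3, 23.4 and 16.2 CPM in MD1 replicates 1 to 4, against 6.88, 5.68, 10.8, 14.2, 8.99 and 11.5 CPM in WT replicates 1 to 6. The lowest MD1 library, MD1 female replicate 4, lay above the highest WT library, WT female replicate 4. The mean sum was 24.4 ± 7.65 CPM in MD1 (SD, n = 4) and 9.68 ± 3.14 CPM in WT (SD, n = 6). As a share of all Pcdhb reads, however, the 9 genes took less in MD1. They held 22.0%, 18.9%, 20.5% and 16.5% of Pcdhb reads in MD1 replicates 1 to 4, and between 24.7% and 32.0% in the WT libraries. The mean share was 19.5% ± 2.35 in MD1 (SD, n = 4) and 26.6% ± 2.78 in WT (SD, n = 6), with no overlap. The Wilson 95% interval was 17.1% to 24.3% in MD1 male replicate 3 (474 Pcdhb reads). In WT male replicate 1 (258 Pcdhb reads) it was 19.9% to 30.4%. In the libraries with most Pcdhb reads it was 20.6% to 23.5% in MD1 replicate 1 (3314) and 22.7% to 28.0% in WT female replicate 4 (1031). Shallow and deep libraries of the 2 genotypes thus overlapped within counting error. The interval of MD1 female replicate 4, 14.5% to 18.6%, lay below that of every WT library. Counted per kilobase of gene, the share was 27.0% ± 3.58 in MD1 and 34.9% ± 3.48 in WT.

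**Figure D3:**
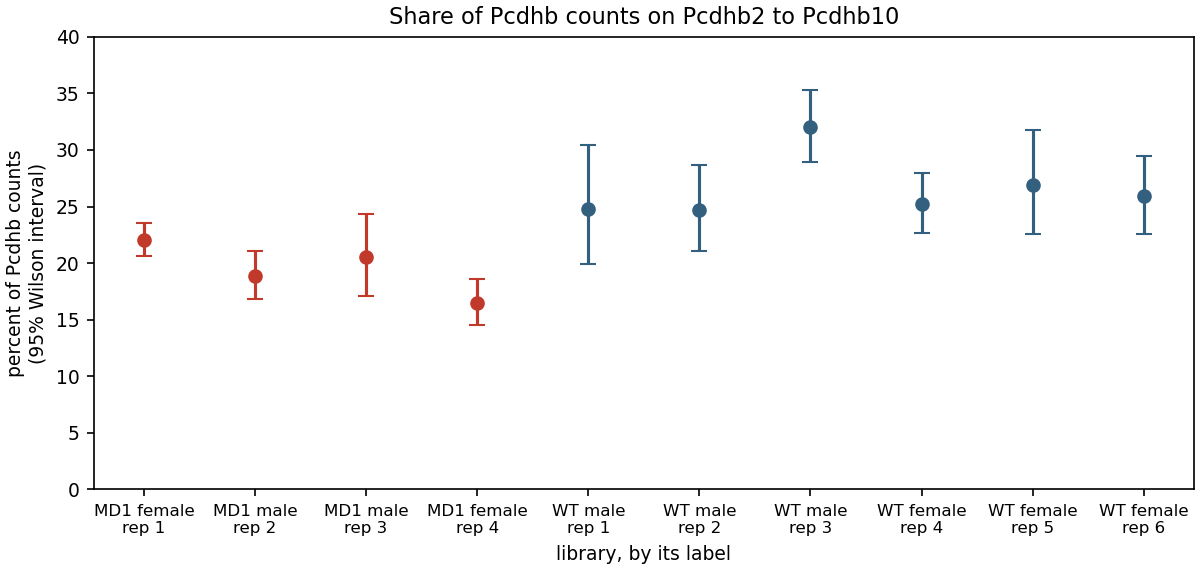
Percent of all Pcdhb counts that fell on Pcdhb2 to Pcdhb10 (vertical axis, from 0) in each library, MD1 at left and WT at right, with Wilson 95% intervals. The MD1 libraries lie between 16.5% and 22.0% and the WT libraries between 24.7% and 32.0%.

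Within the reads of the 9 genes, Pcdhb7 had a smaller and Pcdhb2 a larger share in each MD1 library than in any WT library, which was not tested. Pcdhb7 took 16.8%, 22.2%, 14.4% and 22.1% of the reads of the 9 genes in MD1, against 31.2% to 43.5% in the WT libraries. Pcdhb2 took 22.3%, 16.7%, 28.9% and 12.7% in MD1, and between 6.25% and 12.1% in WT. Its nearest shares lay close, at 27 of 213 reads in MD1 female replicate 4 and 15 of 124 reads in WT male replicate 2. Counting intervals were not computed for the shares of single genes.

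Levels of different genes were compared per length, on the deposited log2 RPKM (reads per kilobase and per library size). In MD1 the order was Pcdhb2, Pcdhb7, Pcdhb6, Pcdhb3, Pcdhb8, Pcdhb5, Pcdhb10, Pcdhb4 and Pcdhb9. Pcdhb2 had a mean level of 0.46 ± 0.99 and Pcdhb7 of 0.10 ± 0.48 (SD, n = 4), and Pcdhb2 was the higher of them in 2 of 4 libraries. From Pcdhb2 down to Pcdhb10, no neighbours in this order differed by more than the SD of their difference over libraries. Pcdhb10 exceeded Pcdhb4 in 4 of 4 MD1 libraries, by 0.34 ± 0.24 on the log2 scale, and Pcdhb9 came last with a level of -4.45 ± 0.67.

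In WT the order was Pcdhb7, Pcdhb6, Pcdhb3, Pcdhb2, Pcdhb5, Pcdhb8, Pcdhb4, Pcdhb10 and Pcdhb9. Pcdhb7, at -0.31 ± 0.41 (SD, n = 6), exceeded Pcdhb6 in 6 of 6 libraries, by 1.41 ± 0.59. From Pcdhb6 to Pcdhb4 the neighbours differed by less than the SD of their difference. Pcdhb4 exceeded Pcdhb10 in 6 of 6 WT libraries, by 1.33 ± 1.01, which is the reverse of their order in MD1. Where a library has 0 reads, the deposited log2 value is set by the depth of the library and the length of the gene, and not by its reads. For Pcdhb9 it was -3.99 in MD1 male replicate 3 with 0 reads and -6.19 in WT male replicate 2 with 1 read, so such values do not measure the gene. Of the WT libraries, 2 had 0 reads of Pcdhb10.

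**Figure D4:**
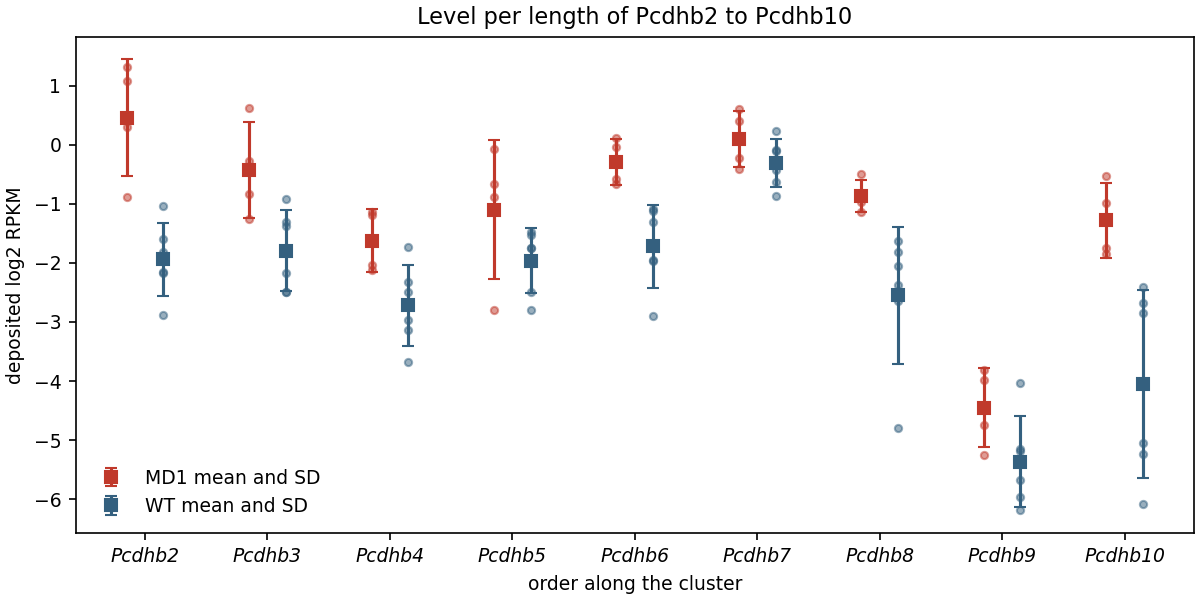
Deposited log2 RPKM (vertical axis) of Pcdhb2 to Pcdhb10 in the order of the cluster, with small points for libraries and squares with bars for the mean and SD, MD1 left of WT for each gene. Pcdhb2 has the highest mean in MD1 (0.46) and Pcdhb7 the highest in WT (-0.31), and Pcdhb9 is lowest in both.

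The 28 pairs of tested members had a median Pearson r of 0.77 in log2 CPM over the 10 libraries, with a lowest of 0.55, and a median of 0.55 after the genotype means were subtracted, when 28 of 28 pairs were still positive. Within the 4 MD1 libraries alone the median was 0.63, with 25 of 28 pairs positive and a lowest r of -0.55. These pairs share libraries and low counts. Among the MD1 libraries, the library labelled MD1 female replicate 1 was highest for 6 of the 8 tested members, and among WT libraries WT female replicate 4 was highest for 6 of the 8. Outside the 9 genes, the 5 tested genes whose log2 CPM followed the mean of the standardised members most closely over the 10 libraries were Pcdhb17 (r = 0.949), Pcdhb19 (r = 0.947), Pcdhb22 (r = 0.945), Pcdhb16 (r = 0.919) and Pcdhb14 (r = 0.900). With the genotype means subtracted, r was 0.891, 0.859, 0.885, 0.727 and 0.693 for these genes in the same order. All 5 are later genes of the same cluster.

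**Figure D5:**
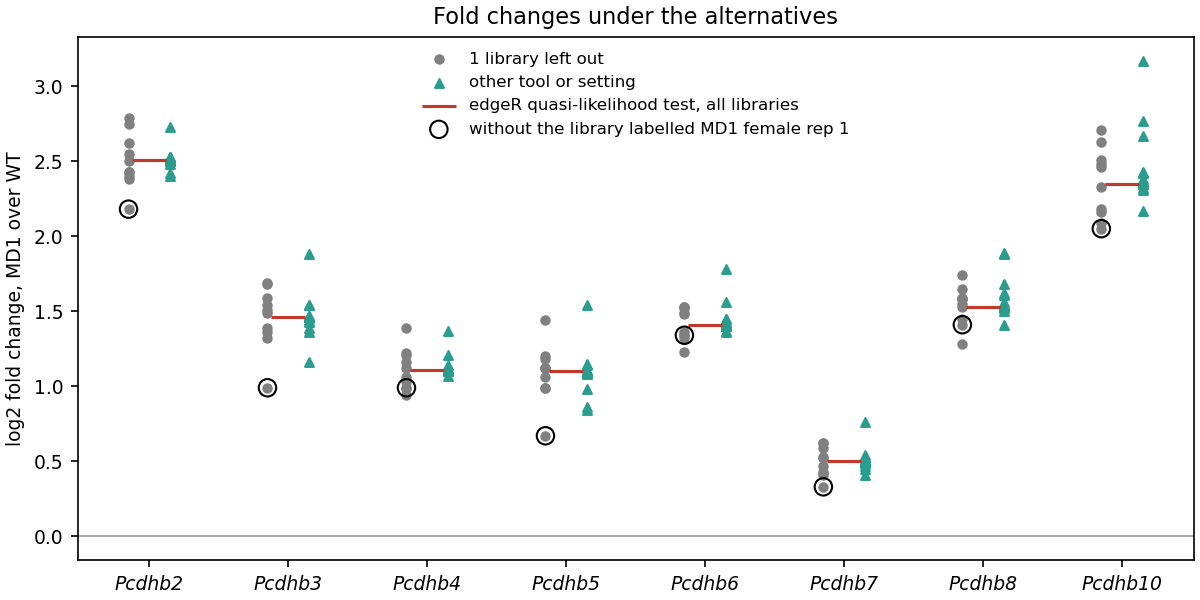
Log2 fold change, MD1 over WT (vertical axis), of each tested member under the main test (red bar), with 1 library left out (grey points) and with another tool or setting (triangles). Every value is above 0, and the ringed value without the library labelled MD1 female replicate 1 is the lowest of the leave-one-out values for Pcdhb2 (2.18), Pcdhb3 (0.99), Pcdhb5 (0.67), Pcdhb7 (0.33) and Pcdhb10 (2.05).

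By labelled sex, the fold changes of the 8 tested members were above 0 in both sexes, and 0 members passed the threshold of edgeR in either. Of the 15982 genes tested on all chromosomes, 3 were called higher within males (0.0188%) and 1 within females (0.00626%). At an unadjusted p under 0.05, 5 of the 8 members were higher within males, beside 1.7% of all tested genes, and 5 of the 8 within females, beside 11.8%. The contrast within males used MD1 replicates 2 and 3 against 3 WT libraries. There Pcdhb2 had a log2 fold change of 3.02 ± 0.57 (SE, adjusted p = 0.576 in edgeR) and Pcdhb6 of 2.02 ± 0.40 (SE, adjusted p = 0.724 in edgeR). Within females, 1 of the 2 MD1 libraries has Y-linked reads at the male level. The other, MD1 female replicate 4, stood apart on the first principal component. The paper reports that female embryos homozygous for a Smchd1 null allele do not survive. On the MD1 side, the female values and the differences between the sexes rest on these 2 libraries. The values within females were 2.08 ± 0.52 for Pcdhb2 (SE, adjusted p = 0.139 in edgeR) and 0.97 ± 0.36 for Pcdhb6 (SE, adjusted p = 0.208 in edgeR). The largest difference between the sexes was that of Pcdhb6, -1.05 ± 0.55 (SE, female minus male), at an adjusted p of 0.489 in edgeR. With both libraries labelled MD1 female left out, Pcdhb2 had a log2 fold change of 2.53 ± 0.41 (SE) and an adjusted p of 0.0571 in edgeR.

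Of 14 genes known to act on the choice or silencing of clustered protocadherins, 13 were tested as autosomal genes, 0 were called higher and 1 was called lower, which was Smchd1. Smchd1 was at 78.6 ± 20.8 CPM in MD1 (SD, n = 4) and 246 ± 14.0 CPM in WT (SD, n = 6), which is -1.65 ± 0.15 in log2 (SE, adjusted p = 0.000746 in edgeR). Lrif1, which encodes a binding partner of SMCHD1, was at 32.1 ± 1.55 CPM in MD1 and 21.9 ± 2.13 CPM in WT, with a log2 fold change of 0.55 ± 0.10 (SE, adjusted p = 0.113 in edgeR). Ctcf, which encodes the boundary factor that binds protocadherin promoters, had a log2 fold change of -0.01 ± 0.08, and Rad21, a cohesin subunit, of 0.04 ± 0.07. Dnmt3b, a de novo DNA methyltransferase, had one of -0.25 ± 0.16 and Setdb1, a histone methyltransferase of silent chromatin, one of -0.02 ± 0.06. The median over the 13 was -0.01. The library labelled MD1 female replicate 1, which was highest for most members, had the lowest Smchd1 level of all libraries, 55.3 CPM. Smchd1 was at 99.9, 67.2 and 91.9 CPM in MD1 male replicate 2, MD1 male replicate 3 and MD1 female replicate 4. In the same order, the summed level of Pcdhb2 to Pcdhb10 was 23.3, 23.4 and 16.2 CPM, beside 34.7 CPM in MD1 replicate 1. A relation between the Smchd1 level and these sums was not tested.

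The 3 spanning models had log2 fold changes below 0, and 0 of them were called. Gm42416 was at 38.0 ± 1.15 CPM in MD1 and 43.0 ± 3.55 CPM in WT, or -0.18 in log2 at an adjusted p of 0.508 in edgeR. For Gm37013 and Gm37388 the log2 fold changes were -0.31 and -0.33, with adjusted p-values of 0.525 and 0.518 in edgeR. Both of these models end at base 37833296 and were at 8.15 ± 0.586 CPM in WT (SD), so their values are not independent.

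Markers of other cells were read beside these values. The 10 markers of neurons summed to between 232 and 432 CPM in MD1 and between 281 and 452 CPM in WT, and of the 8 tested, 3 had higher means in MD1 and 0 were called. Rbfox3, which marks mature neurons, was between 0.0997 and 2.21 CPM in MD1 and between 0.753 and 1.61 CPM in WT. The 7 markers of yolk sac endoderm and liver summed to 375, 2.89, 3.38 and 102 CPM in MD1 replicates 1 to 4, and to between 4.92 and 34.8 CPM in WT, with the highest WT sum in WT female replicate 4. The 2 libraries highest for most members were therefore also the highest of their genotype in this list, while MD1 female replicate 4, with a sum of 102 CPM, had the lowest sum of the 9 genes in MD1. Of its 7 genes, 3 were tested, 3 had higher means in MD1 with a median log2 fold change of 3.72, and 0 were called. The 6 erythroid markers summed to between 2560 and 19700 CPM in MD1 and between 2910 and 4180 CPM in WT, and the 9 hypoxia genes to between 508 and 7550 CPM in MD1 and between 420 and 1410 CPM in WT, with both upper values of MD1 in MD1 female replicate 4. Of the erythroid markers, 5 of 5 tested had higher means in MD1 (median log2 fold change 1.06), and of the hypoxia genes 9 of 9 (median 1.94). For the endothelium list it was 5 of 5 (median 0.10), and for facial mesenchyme 0 of 8 (median -0.17). In these 4 lists 0 genes were called. None of the lists held a gene at 0 in every library. In MD1 male replicates 2 and 3 the yolk sac sum was below that of every WT library, and the 9 genes summed to 23.3 and 23.4 CPM. In MD1 replicates 1 and 4 the yolk sac sum was above that of every WT library, and the 9 genes summed to 34.7 and 16.2 CPM. The highest WT sum of the 9 genes was 14.2 CPM. Whether any of these lists had a part in the levels of the 9 genes was not tested.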

How the data were processed

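The authors deposited 2 tables for the 10 libraries, one of raw counts per gene and one of log2 RPKM. According to the study's methods and the submitters' processing notes, trimming used Trim Galore 0.4.4, alignment HISAT2 2.0.5 on the GRCm38.p6 assembly, and quantification per gene SeqMonk. The kit that the labels name for these libraries does not mark strand, and whether counting used strand is not given in these sources. The deposited log2 values are corrected for transcript length and library size, and zero counts carry a value set by the authors. The authors' columns of genotype means were not used, and 0 other per-sample columns were left out.

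Of 35591 rows, 27 had a symbol turned into a date, which was restored by gene identifier, and 49 repeated identifiers were dropped, keeping the row with more reads. Counts were tested in edgeR 4.0.16 (R 4.3.3) with the quasi-likelihood test of the older method, filterByExpr, TMM, no covariate and Benjamini-Hochberg adjustment over autosomal genes, as the study left out sex chromosomes. The code was tested on simulated data. CPM use TMM-scaled library sizes. Correlations used log2 CPM with a prior count of 2. Depth ran between 4195119 and 24125084 counts per library, and no pair of libraries agreed within counting noise. Wilson intervals of 95% cover counting error only.

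All 9 members are named with their values. The later Pcdhb genes are given as counts and medians, and the 5 most similar genes and the fixed list of regulators are named by rule. The members and lists were chosen with earlier results of these data known. Alternatives used DESeq2 1.42.0, limma 3.58.1, other scalings and filters, and libraries left out.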

Additional observations from a re-analysis of the deposited data

Results flagged for a closer look

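In 66 groups of values, each quantity once per genotype, 1 library stood far from the others in 8, by the gap to its nearest neighbour over the range of the group, a measure that flags about 1 in 20 groups by chance. Of the values of the 9 genes themselves, none did in either genotype. The share of Pcdhb reads on the 9 genes was 32.0% in WT male replicate 3, against 24.7% to 26.9% in the other WT libraries. Pcdhb7 took 43.5% of the reads of the 9 genes in WT male replicate 2, against 31.2% to 32.7% in the others of WT, and Pcdhb8 held only 3 reads in that library.

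Of the regulators, Smc3, a cohesin subunit, was at 377 CPM in MD1 female replicate 4, against 305 to 317 CPM in the other MD1 libraries. Nipbl, the cohesin loader, was at 219 CPM in MD1 male replicate 3, against 259 to 267 CPM. In MD1 female replicate 4 the summed markers of nasal placode and olfactory epithelium were at 410 CPM, against 288 to 298 CPM in the other MD1 libraries, the erythroid markers at 19700 CPM, against 2560 to 4140 CPM, and the hypoxia genes at 7550 CPM, against 508 to 1520 CPM. The hypoxia genes were at 1410 CPM in WT male replicate 1, against 420 to 661 CPM in the other WT libraries. The part of these lists in the levels of the 9 genes was not tested.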

How the results depend on the processing

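Every tested member stayed higher in MD1 under each alternative run, and no value changed sign. The edgeR test of 15452 genes called 12 genes, with Pcdhb2 the 1 member among them. DESeq2 called 51 genes and the exact test of edgeR 30 genes, both with 2 members, Pcdhb2 and Pcdhb6. No member (0) was called by limma-voom (12 genes), by limma on the deposited log2 RPKM (4 genes), with scaling by total count (8 genes), among genes with a mean of at least 1 CPM (10 genes), with all chromosomes tested (11 genes), with labelled sex as a covariate (9 genes) or without both libraries labelled MD1 female (6 genes). The cause was not tested. At an unadjusted p under 0.05, 5 of the 6 members tested were higher with the 1 CPM filter and 6 or 7 of 8 in the other 6 fits, beside 2.06% to 6.89% of all genes tested. Leaving out 1 library at a time gave between 4 and 13 genes and 0 or 1 member, with Pcdhb2 called only without MD1 replicate 4 or without WT replicate 4. Robust dispersions, RLE size factors, no filter, and 2 choices made after seeing the data (the newer dispersions, and leaving out MD1 female replicate 4 with MD1 male replicate 3) kept Pcdhb2. Same-numbered libraries did not deviate together (r between -0.118 and 0.0497, none best with its own number). These values showed no pairing by number, but so few libraries cannot exclude one. With a replicate block 0 genes and 0 members were called, and Pcdhb2 stood at 2.50 in log2 (adjusted p = 0.925 in edgeR).

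Per kilobase, the share of Pcdhb reads on the 9 genes was 27.0% in MD1 and 34.9% in WT. Levels recomputed from counts moved by more than 1 SD in 6 of 18 cases with a pseudocount of 0.1, and in 17 of 18 with a pseudocount of 1. Separate fits per labelled sex changed no direction and no call. Counts of at most 87 reads for any member in a WT library limit the precision.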
